A study of Mus musculus with 9 samples.

Results

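The genes described here build and guard the ends of chromosomes. They are 10 genes, chosen by symbol from the 46078 genes of a count table: Tert, Dkc1 and Gar1 of telomerase and its RNA-binding particle, the shelterin genes Terf1, Terf2, Pot1a, Pot1b, Tinf2 and Acd, and the helicase gene Rtel1. Each symbol matched 1 row, and rows were picked by name, though the members were chosen with earlier results of these data known. The table comes from sequencing of transcript 3′ ends in 9 mouse libraries of the C57BL/6J strain. Of these, 6 were MYCN-induced T cell lymphoma cells from the thymus (lymphomas 34, 53, 56, 70, 72 and 86), and 3 were CD4+ T cells from the spleen (CD4 1, 2 and 3), which served as controls. MYCN belongs to the MYC family of transcription factors. The labels give no age, and no promoter or cell type for the expression of MYCN. They do not say whether each library came from its own animal, so p-values measure the spread between these libraries, which may in part be technical.

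Telomerase adds repeats to chromosome ends. Its reverse transcriptase is encoded by Tert and its RNA template by Terc, and that RNA is held by the H/ACA particle, whose proteins dyskerin (Dkc1), Gar1, Nop10 and Nhp2 also bind the small nucleolar RNAs that guide pseudouridine formation in ribosomal RNA. Shelterin coats the repeats: the Terf1 and Terf2 proteins bind duplex DNA, Pot1 binds the single-stranded overhang, and Tinf2 and Acd bridge them, with Acd also recruiting telomerase. Mice have a pair of Pot1 genes, Pot1a and Pot1b. Telomerase is known to be induced when lymphocytes are activated and is held low in resting T cells.

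The libraries differed in more than their group. Gene counts per library were 11170704 to 15769679 in lymphoma and 8099960 to 10808828 in CD4. Reads in genes made up 38.7 to 49.1% of all reads in lymphoma and 27.8 to 35.05% in CD4, and reads in no annotated feature 16.6 to 22.5% and 30.4 to 33.3%, so both measures separated the groups. A count of 3, about the 95% upper Poisson limit for a library with 0 counts, was taken as the floor. It stood at 0.184 to 0.274 CPM in lymphoma and 0.275 to 0.360 CPM in CD4. CPM is counts per 1000000 of the library size after TMM scaling. Such limits cover counting error only. T cell genes marked both groups: Cd3e averaged 176 CPM over lymphomas (SD 23.5) and 157 CPM over CD4 (SD 30.02), while Cd4 was lower in lymphoma, at 6.04 to 71.9 CPM against 199 to 263 CPM (edgeR adjusted p 0.0111). The summed level of 12 T cell markers was 2433 to 3234 CPM in lymphoma and 3637 to 3847 CPM in CD4, with 1 marker higher and 3 lower in lymphoma. All 10 B cell markers were lower in lymphoma, with a summed level of 6.85 to 13.4 CPM against 1254 to 1514 CPM in CD4. For 10 myeloid and dendritic markers, 7 were lower and the sums were 52.9 to 138 CPM and 322 to 384 CPM. Of 8 tested erythroid markers none passed the threshold, with sums of 14.0 to 890 and 100 to 360 CPM. For stromal and thymic epithelial markers, 2 of 6 tested genes were higher and 1 lower, and 4 of the 10 listed had no count in CD4. The sums were 97.7 to 180 and 213 to 233 CPM, but most of the CD4 sum was 1 gene, Pecam1. Pecam1, the lower gene, averaged 64.5 CPM over lymphomas and 193.5 CPM over CD4. The higher genes were Dcn (4.22 against 0 CPM) and Epcam (23.0 against 1.59 CPM), so the sums do not rank the groups by stroma. All 12 proliferation genes were higher in lymphoma, at a summed 2238 to 3493 CPM against 256 to 310 CPM. The Y-linked Ddx3y had 119 to 178 CPM in lymphoma and 0.191 to 0.734 CPM in CD4, and Xist had 4.66 to 11.3 and 493 to 582 CPM, so sex, tissue of origin and group cannot be told apart. Lymphoma 53 stood apart from the other lymphomas, with Pearson r of log2 CPM across genes of 0.884 to 0.900 to each of them, against 0.939 to 0.980 among the other lymphoma pairs. In bulk RNA, fewer cells of a type and less RNA per cell cannot be told apart. The part that these differences have in the results below was not tested.

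Sequence before the transcription start is shown for 4 genes: Dkc1 and Gar1, which had the largest rises among the members, and the paralogues Pot1a and Pot1b, whose fitted changes had opposite signs. The windows are from RefSeq (GRCm38.p6), run 5′ to 3′ on the gene's own strand, and end before the annotated starts. That of Pot1a has 222 bases and each of the others has 250 bases. They are chrX:75095604-75095853 (plus strand), chr3:129831397-129831646 (minus), chr6:25809247-25809468 (minus) and chr17:55712637-55712886 (minus) in that order. Capitals mark the GC box GGGCGG, the motif of SP1, on either strand.
Dkc1: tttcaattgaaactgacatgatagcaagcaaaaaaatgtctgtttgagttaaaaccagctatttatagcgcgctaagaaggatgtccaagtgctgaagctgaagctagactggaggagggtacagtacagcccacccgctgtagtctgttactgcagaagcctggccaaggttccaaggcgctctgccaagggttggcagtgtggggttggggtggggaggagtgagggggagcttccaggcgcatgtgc
Gar1: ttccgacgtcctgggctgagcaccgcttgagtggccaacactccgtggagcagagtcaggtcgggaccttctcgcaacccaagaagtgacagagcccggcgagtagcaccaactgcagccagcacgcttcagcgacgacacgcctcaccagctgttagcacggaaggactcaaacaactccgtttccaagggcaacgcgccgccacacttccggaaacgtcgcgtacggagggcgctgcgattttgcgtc
Pot1a: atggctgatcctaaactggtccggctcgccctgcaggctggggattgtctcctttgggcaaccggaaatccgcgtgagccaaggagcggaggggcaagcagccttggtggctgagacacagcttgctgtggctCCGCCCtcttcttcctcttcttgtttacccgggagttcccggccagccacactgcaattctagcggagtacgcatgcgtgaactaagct
Pot1b: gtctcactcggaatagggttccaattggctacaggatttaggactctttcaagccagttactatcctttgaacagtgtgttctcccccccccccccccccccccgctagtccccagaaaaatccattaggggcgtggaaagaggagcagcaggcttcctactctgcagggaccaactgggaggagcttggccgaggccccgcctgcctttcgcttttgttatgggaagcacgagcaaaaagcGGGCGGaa

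The Dkc1 and Gar1 windows held no GC box, and Pot1a and Pot1b held 1 each. Over the 250 bases before the start, 9 of the 10 genes had a RefSeq window, and 4 of these 9 (Tert, Pot1a, Pot1b and Rtel1) held GGGCGG, as did 32.7% of all 32851 windows of that length. The canonical E-box CACGTG, to which MYC family proteins bind with MAX, was searched on both strands. It was in none of the 9 genes' windows and in 6.02% of all windows, and neither motif contains the other. These letters describe the windows only.

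Telomerase itself was examined first. Tert (chr13:73626911-73649843, plus strand) had 0, 4, 0, 0, 0 and 6 counts in lymphomas 34, 53, 56, 70, 72 and 86, and 0 counts in each CD4 library. Its counts in lymphomas 53 and 86, 0.365 and 0.433 CPM, were the only ones above the floor of 3 counts. The Tert transcript was therefore at or near the limit of detection in all 9 libraries, did not pass the expression filter and gets no fold change. Fitted without a filter, Tert had an edgeR adjusted p of 0.223. The RNA component Terc (chr3:96414437-96414859), which is not polyadenylated in its mature form, had 12, 3, 3, 3, 1 and 1 counts in the lymphomas in the same order and 0 in CD4. Lymphoma 34 alone exceeded the floor for Terc, and the edgeR adjusted p without a filter was 0.0941. Every lymphoma thus had more Terc counts than every CD4 library, though most were at or under the floor. With counts this low, no group difference in either core component passed the threshold. Whether depth or the capture of 3′ ends limited Terc was not tested.

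The other 9 genes were tested, and 6 were higher and 1 lower in lymphoma by edgeR's quasi-likelihood test at an adjusted p under 0.05. Of all 15401 tested genes, 46.6% passed in either direction, 24.7% higher and 21.9% lower. The median log2 fold change of the 9 was 0.57, against 0.04 over all tested genes. Every lymphoma lay above every CD4 library for 5 of the 9 (22.6% of all tested genes) and below for 0 of the 9 (22.3%). Changes of 2-fold or more were found for 2 of the higher genes, Dkc1 and Gar1 (17.9% of all tested genes), and by the lower gene, Pot1b (17.2%). The other 4 calls among the higher genes were for changes under 2-fold. With RLE or upper quartile scaling, or with no filter, 3 members were higher.

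**Figure D1:**
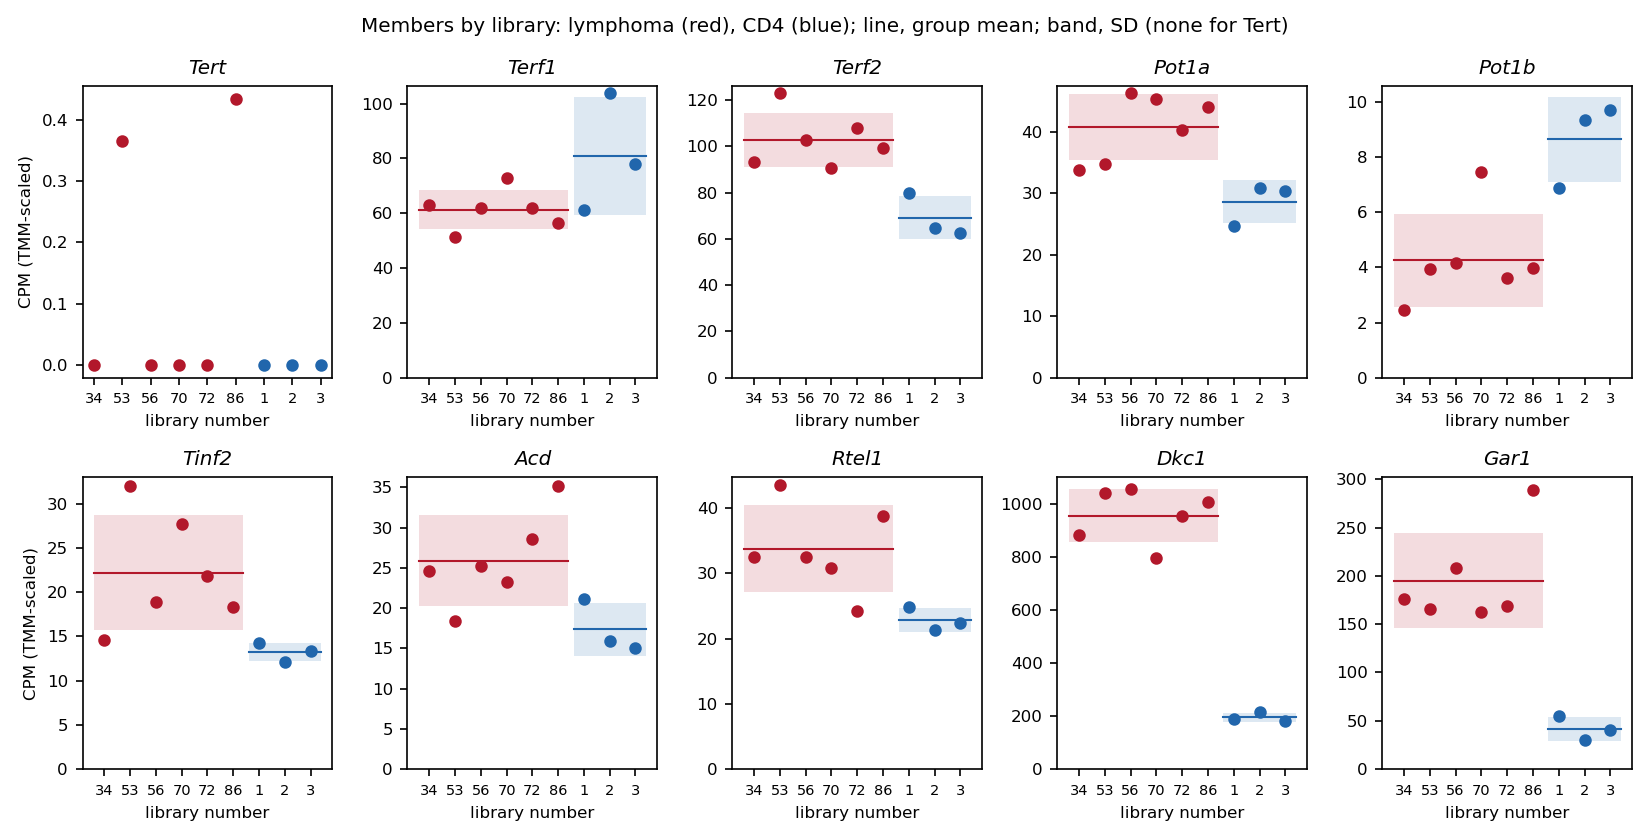
Level of each of the 10 genes in every library, in CPM on a linear axis, with lymphomas in red and CD4 in blue, the group mean as a line and the SD as a band (none for Tert). Dkc1 and Gar1 lie at 797.7 to 1055 and 162 to 289 CPM in lymphoma, far above CD4, whereas Tert is at 0 in 7 of 9 libraries.

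The H/ACA proteins carried the largest changes. Dkc1 (chrX:75095854-75109777, plus strand) encodes dyskerin, the pseudouridine synthase that also holds the telomerase RNA. Lymphomas 34, 53, 56, 70, 72 and 86 had 884, 1041, 1055, 797.7, 955 and 1006 CPM. CD4 1, 2 and 3 had 190.0, 214 and 183 CPM. Even the lowest lymphoma was several times the highest CD4 library. Lymphomas averaged 956 ± 99.7 CPM (SD, n = 6) against 196 ± 16.5 CPM (SD, n = 3). The fitted rise was 4.89-fold, or 2.29 on the log2 scale (SE 0.157), with an edgeR adjusted p of 7.33e-07. The call held in all 19 alternatives, with log2 fold changes from 2.18 to 2.38. Exons of Mpp1 on the other strand hold 9.0% of the last 500 exonic bases of Dkc1. For Mpp1 itself the log2 change, 0.33 (SE 0.447), had an edgeR adjusted p of 0.583. Dkc1 lies on the X chromosome, and the sex-linked transcripts above separate the groups, so for this gene sex and group cannot be told apart.

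Gar1 (chr3:129824912-129831396, minus strand) encodes another protein of the same particle. It had 162 CPM at the lowest, 172.5 at the median and 289 CPM at the highest among lymphomas, and 55.0, 30.1 and 40.3 CPM in CD4 1, 2 and 3. The groups did not overlap, and lymphoma 86 was the highest. Its rise was 4.66-fold, or 2.22 on the log2 scale (SE 0.262), at an edgeR adjusted p of 3.81e-05. This held in all 19 alternatives (2.04 to 2.48). Whether Dkc1 and Gar1 changed unequally was tested on their log2 ratio in each library, which was 2.32 ± 0.287 (SD, n = 6) in lymphoma and 2.26 ± 0.524 (SD, n = 3) in CD4. The difference of 0.06 had an exact two-sided permutation p of 0.833, also 0.833 after adjustment over 3 ratios, and leaving out 1 library moved it between -0.18 (without CD4 1) and 0.34 (without CD4 2).

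Other genes of telomerase assembly and the H/ACA particle rose with them. Of 20 listed genes, 19 were tested, 13 were higher, 1 was lower and 5 were not past the threshold. Over all tested genes, 24.7% were higher and 21.9% lower. The median log2 fold change was 1.07 for the list and 0.04 over all tested genes. The largest rises were in Naf1, an assembly factor of the particle (2.62, SE 0.278), Nhp2, a core protein (2.56, SE 0.454), and Ruvbl1, an ATPase needed for assembly (2.15, SE 0.266). Naf1 stood at 43.3 to 84.04 CPM in lymphoma and 10.4, 8.04 and 11.4 CPM in CD4. The remaining core protein, Nop10, rose by 1.86 (SE 0.199). All 4 core protein genes of the particle were higher in every lymphoma than in every CD4 library, as were 22.6% of all tested genes. Wrap53, which carries telomerase to Cajal bodies, rose by 1.07 (SE 0.283). Nop10 and Wrap53 were picked by role, outside the rule for named genes. The gene that fell was Tep1, a telomerase-associated and vault protein, which averaged 40.5 ± 4.16 CPM (SD, n = 3) across CD4 and 15.3 ± 2.52 CPM (SD, n = 6) across lymphomas (log2 fold change -1.41, SE 0.198).

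Of the duplex-binding shelterin genes, Terf2 passed the threshold and Terf1 did not. Terf2 (chr8:107069400-107096547, minus strand) encodes the protein that protects the chromosome end from being joined to another. It had 90.9, 101 and 123 CPM at the lowest, median and highest lymphoma and 79.8, 64.9 and 62.7 CPM in CD4 1, 2 and 3. The groups did not overlap, though the gap between CD4 1 and lymphoma 70 was small. Terf2 rose 1.49-fold (log2 fold change 0.57, SE 0.162, edgeR adjusted p 0.0120), and the call was lost without CD4 3 (0.52, adjusted p 0.0549).

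Terf1 (chr1:15805646-15844052, plus strand) encodes the protein that helps forks pass through the repeats. It had 51.4, 62.0 and 72.9 CPM at the lowest, median and highest lymphoma and 61.1, 103.8 and 77.9 CPM in CD4 1, 2 and 3. The groups overlapped through CD4 1, and CD4 2 stood highest. The fitted log2 change, -0.40 (SE 0.185), had an edgeR adjusted p of 0.0968. It passed without CD4 1 (-0.55, adjusted p 0.0432) and with upper quartile scaling (-0.51, 0.0479), and was -0.17 without CD4 2. The log2 ratio of Terf1 to Terf2 was -0.75 ± 0.311 (SD, n = 6) in lymphoma and 0.20 ± 0.539 (SD, n = 3) in CD4. That difference of -0.95 had an exact two-sided permutation p of 0.0476, and 0.0714 after adjustment over the 3 ratios. The lowest CD4 ratio, -0.38 in CD4 1, lay under the highest lymphoma ratio, -0.32 in lymphoma 70.

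The Pot1 paralogues had fitted changes of opposite sign. Pot1a (chr6:25743737-25809246, minus strand), the copy known to be needed to keep the damage response away from telomeres, had 33.9, 42.2 and 46.4 CPM at the lowest, median and highest lymphoma and 24.6, 30.8 and 30.5 CPM in CD4 1, 2 and 3. Every lymphoma was above every CD4 library. Pot1a rose 1.43-fold (log2 fold change 0.51, SE 0.180, edgeR adjusted p 0.0347). The call was close to the threshold and was lost in 12 of 19 alternatives. Among these were RLE (0.45, adjusted p 0.0534) and upper quartile scaling (0.41, 0.0830), and fits without lymphoma 56 (0.49, 0.0584), lymphoma 72 (0.51, 0.0572), CD4 1 (0.43, 0.113), CD4 2 (0.57, 0.0597) or CD4 3 (0.57, 0.0625).

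Pot1b (chr17:55651951-55712628, minus strand), the copy known to limit trimming of the chromosome end, was low throughout. Lymphomas 34, 53, 56, 70, 72 and 86 had 2.45, 3.93, 4.15, 7.47, 3.6 and 3.97 CPM. CD4 1, 2 and 3 had 6.87, 9.36 and 9.72 CPM. In counts these were 38 to 122 reads in lymphoma and 72, 78 and 106 in CD4. All lymphomas but lymphoma 70 were below all CD4 libraries. Pot1b fell 2.03-fold (log2 fold change -1.02, SE 0.383, edgeR adjusted p 0.0458). Without lymphoma 70 the change was -1.21 (adjusted p 0.0201). The call was lost in 9 of 19 alternatives, among them fits without lymphoma 34 (-0.86, adjusted p 0.0887), 56 (-0.99, 0.0788), 72 (-0.98, 0.0780) or 86 (-0.97, 0.0793), and without CD4 1 (-1.15, 0.0568), CD4 2 (-0.95, 0.127) or CD4 3 (-0.92, 0.141).

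The balance of the paralogues was compared within each library. The log2 ratio of Pot1b to Pot1a was -3.71, -3.10, -3.44, -2.58, -3.43 and -3.42 for lymphomas 34, 53, 56, 70, 72 and 86. For CD4 1, 2 and 3 it was -1.82, -1.70 and -1.63. Every lymphoma lay below every CD4 library, lymphoma 70 included. The means were -3.28 ± 0.393 (SD, n = 6) and -1.72 ± 0.0940 (SD, n = 3), a difference of -1.56. The exact two-sided permutation p was 0.0238, the smallest that 6 against 3 libraries allow, and 0.0714 after adjustment over the 3 ratios. Leaving out 1 library kept the difference between -1.70 and -1.48. In a search for shared runs of 30 bases, 1.38% of those in Pot1a transcripts and 4.24% of those in Pot1b transcripts occurred in transcripts of other genes, and the paralogue was not among the 4 leading partners of either.

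**Figure D2:**
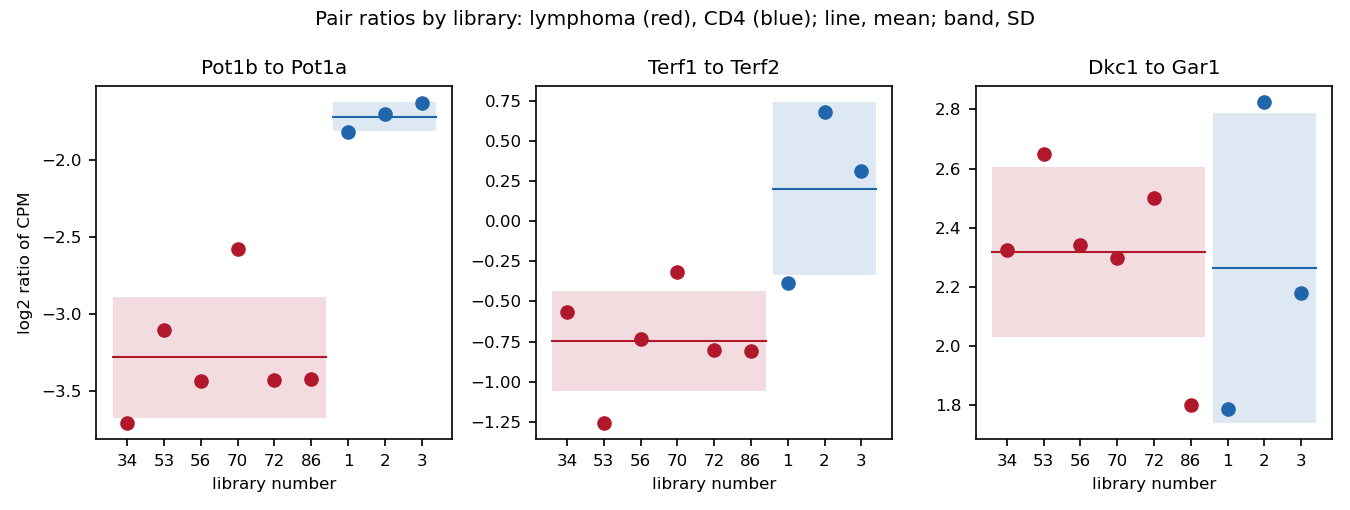
Log2 ratio of CPM for 3 gene pairs in every library, lymphomas in red and CD4 in blue, with the mean as a line and the SD as a band. For Pot1b to Pot1a the lymphomas lie at -3.71 to -2.58 and CD4 at -1.82 to -1.63, while the groups overlap for the other pairs.

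Of the bridging subunits, Tinf2 passed the threshold and Acd did not. Tinf2 (chr14:55674689-55681820, minus strand), which joins the duplex-binding proteins to Acd, had 14.6, 20.3 and 32.0 CPM at the lowest, median and highest lymphoma and 14.2, 12.1 and 13.4 CPM in CD4 1, 2 and 3. No lymphoma fell below CD4 1, but lymphoma 34 was just above it. Tinf2 rose 1.67-fold (log2 fold change 0.74, SE 0.277, edgeR adjusted p 0.0439). The call was lost in 13 of 19 alternatives: it did not hold without lymphoma 53, where Tinf2 was highest (0.61, adjusted p 0.0501), lymphoma 70 (0.71, 0.0649), lymphoma 72 (0.74, 0.0657), CD4 1 (0.81, 0.0698), CD4 2 (0.69, 0.126) or CD4 3 (0.76, 0.0975), nor with the 3 other scalings or limma voom. Of the last 500 exonic bases of Tinf2, 16.4% lie in exons of Gmpr2 on the other strand, as do 1540 of all 4938. For Gmpr2 itself the log2 change, 0.45 (SE 0.244), had an edgeR adjusted p of 0.155. Both genes were highest in lymphomas 53, 70 and 72. The strand setting of the counting is not given in the sources used here, so the level of Tinf2 is uncertain.

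Acd (chr8:105695860-105701102, minus strand), the subunit that carries Pot1 and recruits telomerase, had 18.4, 24.9 and 35.2 CPM at the lowest, median and highest lymphoma and 21.1, 16.0 and 15.1 CPM in CD4 1, 2 and 3. Lymphoma 53 was the one lymphoma below CD4 1. The fitted log2 change, 0.57 (SE 0.241), had an edgeR adjusted p of 0.0691. It passed without lymphoma 53 (0.65, adjusted p 0.0207) and without CD4 1 (0.75, 0.0480). All of the last 500 exonic bases of Acd lie in exons of Carmil2 (Rltpr in the table) on the opposite strand, and the strand setting of the counting is not given in the sources used here, so the level of Acd is uncertain. For Rltpr itself the log2 change, -0.52 (SE 0.238), had an edgeR adjusted p of 0.0937.

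Rtel1 (chr2:181319739-181356616, plus strand) encodes a helicase that unwinds telomeric loops. It had 24.3, 32.5 and 43.6 CPM at the lowest, median and highest lymphoma and 24.8, 21.4 and 22.4 CPM in CD4 1, 2 and 3. Lymphoma 72 lay just under CD4 1, and the other 5 lymphomas lay above all CD4 libraries. Rtel1 rose 1.48-fold (log2 fold change 0.56, SE 0.210, edgeR adjusted p 0.0449). The call was lost in 14 of 19 alternatives, among them the 3 other scalings, DESeq2 (0.50, adjusted p 0.0525), and fits without lymphoma 56 (0.59, 0.0511), lymphoma 86 (0.55, 0.0601), CD4 1 (0.64, 0.0531), CD4 2 (0.52, 0.126) or CD4 3 (0.56, 0.107).

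**Figure D3:**
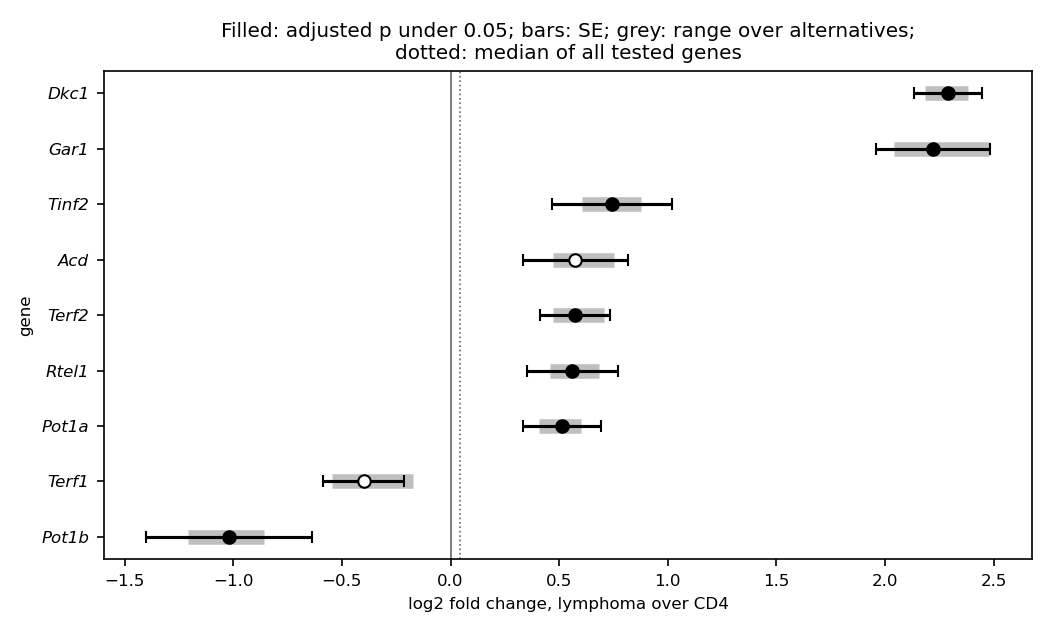
Fitted log2 fold change of the 9 tested genes (x axis, lymphoma over CD4), with the SE as a bar, the range over 19 alternatives in grey, and filled points for an adjusted p under 0.05. Dkc1 (2.29) and Gar1 (2.22) stand apart from the shelterin genes, which run from -1.02 for Pot1b to 0.74 for Tinf2.

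Taking shelterin by itself, 3 of its 6 member genes were higher, 1 was lower and 2 were not past the threshold, where 24.7% of all tested genes were higher and 21.9% lower. The remaining shelterin gene, Terf2ip, which encodes the RAP1 protein bound to Terf2, had 20.3 to 25.1 CPM in lymphoma and 28.5, 22.7 and 20.3 CPM in CD4 1, 2 and 3. Its fitted log2 change was -0.08 (SE 0.192, edgeR adjusted p 0.771), and the sign turned without CD4 1 (0.09). Spread between lymphomas also differed among the members. The SD of log2 CPM over the 6 lymphomas was 0.16 for Dkc1 and Terf2, 0.17 for Terf1 and 0.20 for Pot1a. It was 0.29 for Rtel1, 0.31 for Acd, 0.32 for Gar1, 0.41 for Tinf2 and 0.50 for Pot1b. The median over all tested genes, at every level, was 0.47. Pot1b averaged 4.26 CPM and Dkc1 956 CPM over lymphomas, and the part of expression level in these spreads was not tested. Lymphoma 53 was highest for Terf2, Tinf2 and Rtel1 and lowest for Terf1 and Acd, and lymphoma 34 was lowest for Pot1a, Pot1b and Tinf2.

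Most tested genes listed for telomere end replication rose. Of 20 listed symbols, 19 were in the table and 18 were tested, with 11 higher, 2 lower and 5 not past the threshold. Over all tested genes, 24.7% were higher and 21.9% lower. The median log2 fold change was 1.62 for the list and 0.04 over all tested genes. All 12 proliferation genes were higher, with a median of 3.49, and the part of proliferation in the rises of this list was not tested. Tipin, of the fork protection complex, rose most (log2 fold change 3.41, SE 0.220), averaging 18.0 CPM over CD4 (SD 3.31) and 193 CPM over lymphomas (SD 30.2). Dna2, a nuclease and helicase, rose by 3.36 (SE 0.258), and Prim1, the primase subunit that starts each lagging strand fragment, by 3.0 (SE 0.206). Of the CST complex, which fills in the C-rich strand, Ctc1 rose by 1.42 (SE 0.195) and Ten1 by 0.50 (SE 0.185), while Obfc1, the table's name for Stn1, had -0.43 (SE 0.286) and was not past the threshold. These 3 were picked by role and not by the rule for named genes. The falls were in Mus81, a nuclease subunit (-1.07, SE 0.282), and Wrn, the Werner helicase (-0.60, SE 0.196). The call of Mus81 was lost without CD4 2 (-0.90, edgeR adjusted p 0.0523). That of Wrn was lost without lymphoma 34 (-0.58, adjusted p 0.0520), lymphoma 70 (-0.53, 0.0724), CD4 1 (-0.48, 0.128), CD4 2 (-0.63, 0.0574) or CD4 3 (-0.64, 0.0535).

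Of 19 tested partners of shelterin and telomere chromatin genes, 5 were higher, 5 lower and 9 not past the threshold, with a median log2 fold change of -0.05. The shares, 26.3% in each direction, were near those over all tested genes (24.7% higher and 21.9% lower). The largest fall was in Samhd1, a dNTP hydrolase, which averaged 568 ± 91.4 CPM (SD, n = 3) across CD4 and 34.4 ± 20.8 CPM (SD, n = 6) across lymphomas (log2 fold change -4.05, SE 0.391). Nek7, a kinase, fell by 1.60 (SE 0.182), and Fbxo4, part of a ubiquitin ligase for Terf1, by 1.18 (SE 0.240). The rises were led by Hnrnpa1, an RNA-binding protein (1.26, SE 0.279), Ercc1, a nuclease subunit (1.21, SE 0.251), and Nbn of the MRN complex (1.05, SE 0.301). Hnrnpa1 has many near-identical copies in the genome and its level is uncertain. The call of Nbn was lost without CD4 2 (0.90, edgeR adjusted p 0.0680). Across the 3 lists, 29 of 56 tested genes were higher and 8 lower, beside 24.7% and 21.9% of all tested genes.

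**Figure D4:**
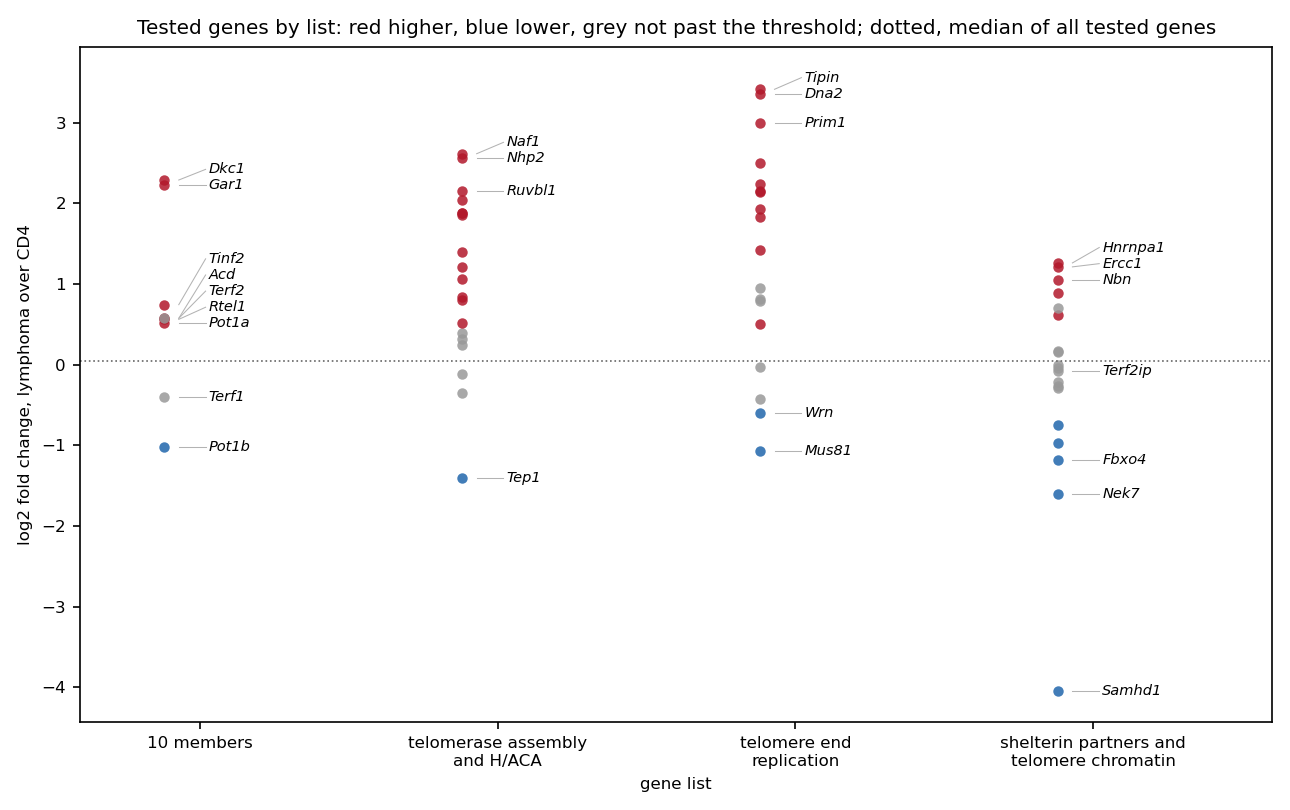
Fitted log2 fold change (y axis, lymphoma over CD4) of every tested gene in 4 lists, red where higher, blue where lower and grey where not past the threshold, with the median of all tested genes dotted. The lists of telomerase assembly and of end replication have medians of 1.07 and 1.62, and that of shelterin partners lies at -0.05.

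The profiles most like 2 of the members were then listed, by the root mean square difference of centred log2 CPM over the 9 libraries among 9416 other genes with an average log2 CPM of at least 3. For Dkc1, the member that rose most, they included Rqcd1 (0.127) and Mrpl34 (0.129), where the median candidate differed by 1.09. For Pot1b, the member that fell, they were Dpm1 (0.212), Cables2 (0.226) and Herc6 (0.251), where the median was 0.853.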

How the data were processed

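Transcript 3′ ends were sequenced in 6 lymphoma and 3 CD4 libraries. The authors deposited 1 table of raw read counts per Ensembl gene with 46078 genes and 5 closing summary rows, which entered neither library sizes nor tests. The row of reads in no feature held 16.6 to 33.3% of all reads. The submitters' processing notes name FastQC, HISAT2, SAMtools and HTSeq and the build mm10 (GRCm38). Versions, annotation and strand setting are not given in the sources used here.

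The main test used edgeR 4.0.16 (R 4.3.3) (filterByExpr with a minimum count of 10, TMM, robust quasi-likelihood fit, no covariate, all 9 libraries), with Benjamini-Hochberg adjustment over 15401 genes and 0.05 as threshold. The SE is the absolute log2 fold change over the square root of F. CPM used the TMM-scaled library size, and log2 ratios a prior count of 2, set against each other by an exact permutation test, two-sided, over the 84 assignments of libraries. The edgeR, DESeq2 and limma scripts were tested on simulated data with far fewer changed genes than were called here, in equal numbers up and down. That test does not cover scaling where many genes change. Replicates of a group differed by more than sampling noise (chi-square per degree of freedom 18.8 to 138). Positions and exon overlap are from GENCODE M21 (GRCm38).

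The members and gene lists were chosen with earlier results of these data known. Named genes are the members, the 3 largest rises and falls past the threshold in each of the 3 pathway lists, Terc and Terf2ip, and the 3 nearest profiles of Tert (if tested) and of the members that rose and fell most; 1 of these profiles is not reported here. Alternatives were DESeq2 1.42.0, limma 3.58.1 (voom), other scalings, filters and thresholds, leaving out each library, and summing lymphomas 34, 70 and 72, which in earlier results shared their most used Trbv segment.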

Additional observations from a re-analysis of the deposited data

Results flagged for a closer look

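Among the 6 lymphomas, 30 results were examined for a library far from the others, by the gap to its neighbour over the whole range against Dixon's 95% critical value. For independent results with normally distributed values, about 1.5 such cases would arise, and 5 were found. The results share libraries, and all 5 were high values on the linear CPM scale, so these numbers do not measure an excess over chance. Pot1b stood at 7.47 CPM in lymphoma 70, where the next lymphoma had 4.15 CPM. Gar1 stood at 289 CPM in lymphoma 86, against 208 CPM in the next. Lymphoma 53 was highest for Dna2 (139 CPM, next 105 CPM) and for Samhd1 (74.5 CPM, next 34.2 CPM). Terc stood at 0.774 CPM, from 12 counts, in lymphoma 34, while the next lymphoma had 0.274 CPM.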

How the results depend on the processing

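The calls of Dkc1 and Gar1 held in all 19 alternatives, and no tested member changed sign in any of them. The number of members called did move. From 6 higher, it was 3 with RLE scaling, 3 with upper quartile scaling, 3 with no filter, 2 at an adjusted p under 0.01 and 2 at 2-fold or more. It was 2 to 6 when 1 library was left out, with 3 without CD4 2 and 2 without CD4 3. The number lower, 1, was 2 with upper quartile scaling, 0 with no filter, 0 at an adjusted p under 0.01, and 0 to 1 when 1 library was left out. Pathway genes lower in lymphoma were 5 instead of 8 at 2-fold or more. The Dkc1 to Gar1 ratio difference was -0.01 without lymphoma 53 and ranged from -0.18 to 0.34 over single libraries left out. Terf2ip ranged from -0.172 to 0.0909 over single libraries left out and was above 0 in that series only without CD4 1. Upper quartile scaling lowered the median of all tested genes by 0.102 on the log2 scale. Pot1b rests on 38 to 122 reads per library, and Tert could not be compared at this depth. With 2 CD4 libraries the exact test of a ratio cannot reach 0.05. No paired analysis was possible because the groups share no replicate numbers.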

Other observations

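Fen1, the flap nuclease of lagging strand synthesis, was listed at 0 counts in all 3 CD4 libraries and had 32 counts in the 6 lymphomas together, with an edgeR adjusted p of 0.0713 when no filter was used. In the GENCODE annotation 88.6% of the last 500 exonic bases of Fen1 lie in exons of the antisense gene Gm10143. Gm10143 itself averaged 2.77 CPM over the 6 lymphomas (SD 0.557) and 3.58 CPM over the 3 CD4 libraries (SD 0.950).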
